A study of Mus musculus with 80 samples.

Results

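The hypothalamus of virgin and primiparous mice was compared across genes, with attention to the GC content of the transcripts and to the genes whose difference passed the test both with and without a correction for it. Members were all libraries labelled as hypothalamus in the count table, 16 of the 77 libraries with counts. They came from 8 virgin and 8 primiparous C57BL/6 females (C57BL/6J in the methods of the study). Each library held poly(A)-selected RNA from the dissected hypothalamus of 1 mouse. Primiparous females had been housed with a male from the age of 8 weeks, had raised a single litter and were sampled, by the labels, 3 weeks after weaning, while the methods of the study give a somewhat later harvest. Virgin females were of the same age and lived in groups without males, so that mating, pregnancy, nursing and housing cannot be told apart in this comparison. The other libraries of the series, from the cortex, cerebellum, hippocampus and amygdala of the same mice, served only to test where the hypothalamus differed from them. Counted reads ranged from 10569737 to 23352639 in virgin libraries, with a median of 13733021, and from 7959192 to 21244211 in primiparous libraries, with a median of 14756056. All fold changes are primiparous over virgin.

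The hypothalamus controls feeding, body temperature, sleep, stress and reproduction through small groups of neurons that release peptides, either within the brain or into the blood around the pituitary gland. Several of these groups change their activity during pregnancy and nursing, among them the oxytocin neurons and the cells that respond to prolactin. GC content is the share of guanine and cytosine bases in a transcript. The yield of fragments in a sequencing library can depend on it, because strands rich in these bases melt at a higher temperature during amplification and AT-rich fragments are lost more easily in other steps, so a library can favour GC-rich or GC-poor transcripts as a whole.

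The label was checked against genes that mark the region. Of 27 measured peptide genes of the hypothalamus, 19 had their highest mean level there, and so did 15 of 22 measured transcription factors, while 3933 of all 13016 genes did. Hcrt, the precursor of the orexins, had a median of 231 CPM (read counts scaled to library size) in the hypothalamus and 0.4 in the amygdala. For Pmch, the precursor of melanin-concentrating hormone, the medians were 164 and 0.739 CPM. Nr5a1, a factor of the ventromedial nucleus, had a median of 15.4 CPM in the hypothalamus and 0.0 in each other region. Neighbouring tissue was also present in some libraries. Prl, the pituitary gene of prolactin, reached 120 CPM in virgin library 4490, 97.3 in primiparous library 427 and 59.6 in primiparous library 414, against a median of 1.02 over the 16 libraries. Library 4490 also had the most Tcf7l2 and Prkcd, which are abundant in the thalamus, at 60.8 and 82.2 CPM. The libraries with pituitary transcripts thus belonged to both groups.

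The libraries were first compared in their trend with GC content. For every library, the log2 of CPM plus 4 of each gene was set relative to the mean of the 16 libraries and regressed on the GC content of its longest transcript, over 12648 genes. The slope of the virgin libraries ranged from −0.16 to 0.09 log2 units per 10 percentage points of GC, with a median of −0.13. Primiparous libraries ranged from −0.07 to 0.26, with a median of 0.07. The groups overlapped, through virgin library 409 at the upper end of its group and primiparous library 418 at the lower end of its own. Mean slopes were −0.09 ± 0.0813 (SD, n = 8) in virgin and 0.09 ± 0.105 (SD, n = 8) in primiparous libraries, a difference of 0.18 (two-sided exact permutation test over 12870 splits, p = 0.0028, and 0.014 after Benjamini-Hochberg adjustment over 5 regions). All 8 primiparous slopes lay above the virgin mean. In an average primiparous library, GC-rich transcripts were thus over-represented and GC-poor transcripts under-represented relative to a virgin library.

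**Figure D1:**
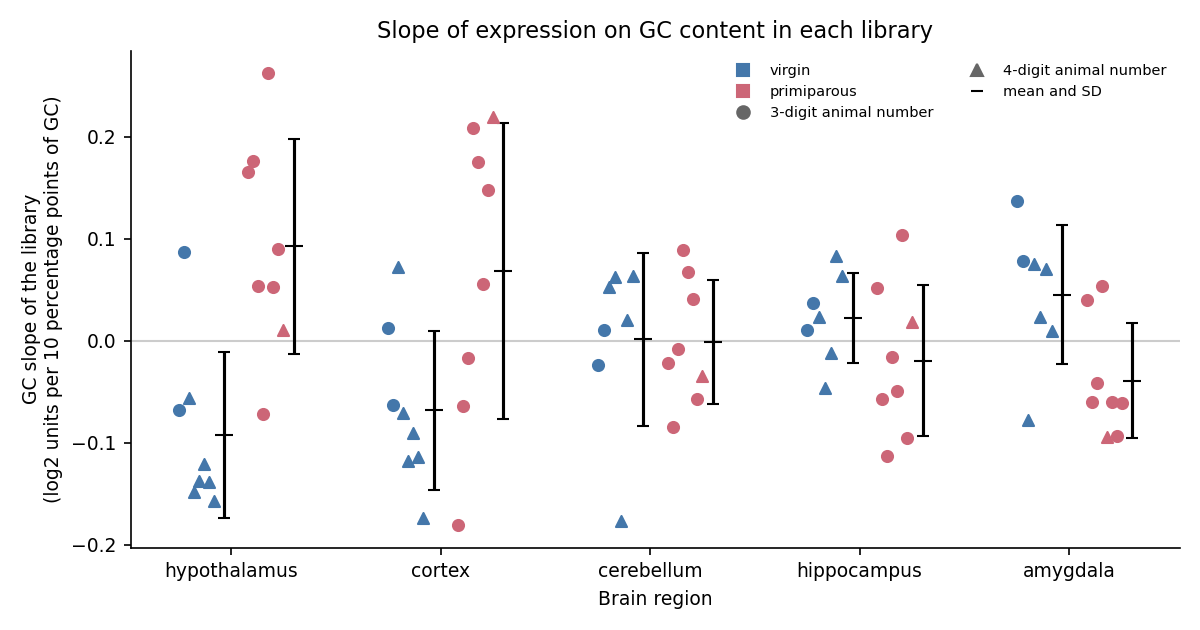
Slope of relative log2 expression on GC content, in log2 units per 10 percentage points, for every library of the 5 regions. Points are libraries, circles are animals with 3-digit numbers, triangles are animals with 4-digit numbers, and bars give the mean and SD; in the hypothalamus the virgin mean is −0.09 and the primiparous mean 0.09.

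Animal numbers in the labels have 3 or 4 digits, and what sets them apart is not given in the sources used here. The 3-digit numbers belong to 2 virgin and 7 primiparous mice and the 4-digit numbers to 6 virgin mice and 1 primiparous mouse. Among virgin libraries, the slopes were −0.07 and 0.09 for the 3-digit animals and ranged from −0.16 to −0.06 for the 4-digit animals. Primiparous slopes ranged from −0.07 to 0.26 for the 3-digit animals, and the single 4-digit animal had a slope of 0.01. Within the 3-digit animals alone the difference between the states was 0.09 (exact permutation test, p = 0.417), and among the 4-digit animals it would rest on 1 primiparous mouse. Reproductive state and the series of animal numbers therefore cannot be told apart for most of what follows.

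Without correction, many genes differed, and the direction of the difference followed GC content. In edgeR's quasi-likelihood test, 2939 of 13016 genes (22.6%) passed at an adjusted p under 0.05. Of these, 1405 (10.8%) were higher and 1534 (11.8%) were lower in primiparous females, with a median change of 1.2-fold in either direction. Genes higher in primiparous females had a median GC content of 56.7% and those lower had a median of 42.2%, against 49.9% over all genes. In the decile of genes with the least GC, 621 of 1265 genes were lower and 1 was higher, and the median log2 fold change was −0.26. In the decile with the most GC, 481 of 1265 genes were higher and 1 was lower, with a median of 0.21. Across genes, which are not independent replicates, log2 fold change and GC content had a Pearson correlation of 0.635. The same measure with the log2 of exon length was −0.21.

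**Figure D2:**
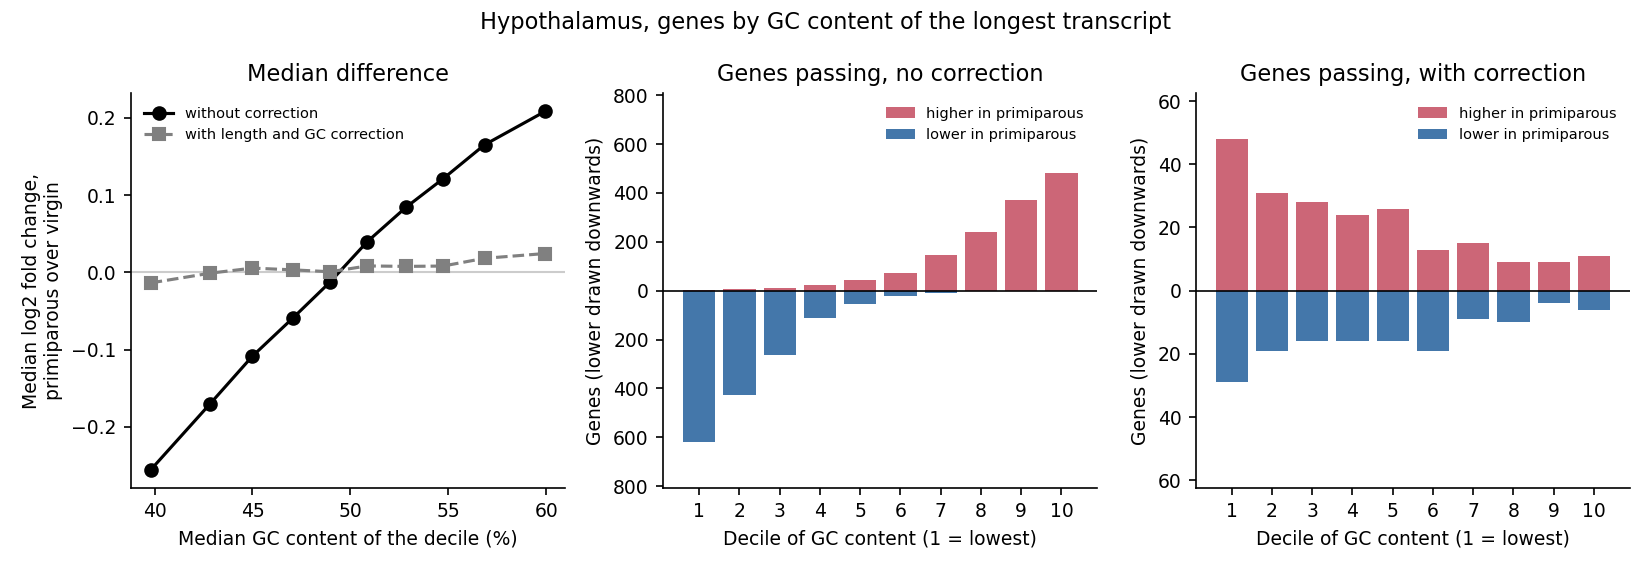
Left, median log2 fold change of primiparous over virgin hypothalamus in each decile of genes by GC content (x axis, median GC in percent), without (black) and with (grey) correction for length and GC. Middle and right, number of genes passing at an adjusted p under 0.05 in each decile, higher ones upwards and lower ones downwards; without correction the lowest decile holds 621 lower genes and the highest decile 481 higher genes.

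What such extremes look like in sequence is shown by coding windows of 4 abundant genes, the lowest 2 and the highest 2 in GC content among the genes that passed without correction. Each window is 90 bases of a coding exon from the GENCODE M21 transcripts on GRCm38, read along the strand of the gene. Capitals mark G and C.
Arhgap5 (chr12:52518063-52518152, plus strand, exon 2 of 7): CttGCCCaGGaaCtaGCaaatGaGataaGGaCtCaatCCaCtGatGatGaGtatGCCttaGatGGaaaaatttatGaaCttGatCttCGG
Fnbp1l (chr3:122557960-122558049, minus strand, exon 9 of 16): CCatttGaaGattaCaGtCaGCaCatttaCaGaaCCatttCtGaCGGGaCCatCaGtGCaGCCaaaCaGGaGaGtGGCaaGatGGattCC
Vstm2l (chr2:157943944-157944033, plus strand, exon 4 of 4): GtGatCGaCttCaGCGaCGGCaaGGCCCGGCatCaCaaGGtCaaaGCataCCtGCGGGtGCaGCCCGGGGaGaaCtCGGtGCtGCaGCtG
Jund (chr8:70699525-70699614, plus strand, exon 1 of 1): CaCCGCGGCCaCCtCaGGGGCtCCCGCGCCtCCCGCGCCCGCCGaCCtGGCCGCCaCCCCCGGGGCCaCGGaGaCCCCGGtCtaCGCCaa

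These windows held 36, 42, 57 and 73 G or C bases of 90, and the whole transcripts had a GC content of 33.9%, 34%, 69.2% and 67.2%. Arhgap5, a GTPase-activating protein, had 133 CPM at the lowest, 178 at the median and 194 at the highest in virgin libraries, and 92.1, 133 and 176 CPM in primiparous libraries. Its log2 fold change was −0.40 (adjusted p = 0.0109, edgeR) and became −0.04 (adjusted p = 0.631) with correction. Jund, a transcription factor of the AP-1 group, ranged from 142 to 173 CPM in virgin (median 166) and from 142 to 226 in primiparous libraries (median 181), with a log2 fold change of 0.20 (adjusted p = 0.0491) that became −0.02 (adjusted p = 0.792). The uncorrected call of Jund was near the threshold and was lost in 19 of its alternative fits. Both ranges overlapped, and so did those of Fnbp1l and Vstm2l, whose corrected log2 fold changes of 0.12 (adjusted p = 0.168) and 0.05 (adjusted p = 0.587) did not pass either.

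Once each library's smooth trend with length and GC was removed, 358 of 12648 genes (2.83%) passed, 214 higher (1.69%) and 144 lower (1.14%) in primiparous females. The correlation of log2 fold change with GC across genes fell to 0.0209, which follows from the fit, since the trend was removed over these same genes. edgeR's common estimate of biological variation was 12.1% over 13016 genes without correction and 10.3% over 12648 genes with it. A gene was said to hold when it passed with and without the correction in the same direction. That was the case for 239 genes (1.89%), 116 higher and 123 lower, although leaving out 1 library gave 119 (without virgin 4490) to 448 such genes (without primiparous 418), and 172 to 661 in place of 358 genes passing with correction. The 239 were 8.13% of the genes passing without correction and 66.8% of those passing with it. Only 118 genes passed with correction alone, and 1 gene passed both tests in opposite directions. The genes that held and were higher had a median GC content of 49.5%, near that of all genes, and a median exon length of 3571 bases, while those lower had medians of 45.9% and 5528 bases, against 4736 bases over all genes. Their differences were small, with a median of 1.17-fold. Among these genes, chosen by their p-values and 1.89% of those tested, the CPM values of the groups did not overlap for 35, and corrected CPM values for 22. The share of all tested genes without overlap is not given here, so these counts describe the chosen genes only.

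Among the genes that held, the smallest corrected p-values belonged to mt-Co1, Zwint, Ppp2cb, Ptn and Dad1. mt-Co1, the catalytic subunit of cytochrome oxidase encoded in mitochondrial DNA (chromosome M of GRCm38, 5328 to 6872), had 13830, 15920 and 16740 CPM at the lowest, median and highest in virgin libraries, and 9803, 11120 and 12520 CPM in primiparous libraries. The groups did not overlap. Its log2 fold change was −0.51 (SE 0.0546, adjusted p = 9.05e-06, edgeR) without correction and −0.27 (SE 0.0332, adjusted p = 6.21e-05) with it. Ptn, a secreted growth factor that binds heparan sulfate (chromosome 6, 36714929 to 36810220), had 106, 116 and 121 CPM in virgin and 122, 130 and 149 in primiparous libraries, again without overlap. It rose by a corrected log2 fold change of 0.36 (SE 0.0493, adjusted p = 0.00012). Dad1, a subunit of the complex that attaches sugars to proteins in the endoplasmic reticulum (chromosome 14, 54235479 to 54254104), had 59.6, 72.7 and 78.8 CPM in virgin and 80.5, 87.5 and 99 in primiparous libraries. These ranges did not meet either, and the corrected log2 fold change was 0.39 (SE 0.0585, adjusted p = 0.000516).

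Zwint, first known from the kinetochore and abundant in neurons (chromosome 10, 72654845 to 72674964), had 720, 763 and 794 CPM in virgin and 744, 870 and 933 in primiparous libraries. Only the lowest primiparous library fell below the virgin mean. Its corrected log2 fold change of 0.35 (SE 0.0454, adjusted p = 0.00012) was larger than the 0.17 without correction, since its transcript is GC-poor at 42.6%. Ppp2cb, a catalytic subunit of protein phosphatase 2A (chromosome 8, 33599625 to 33619441), was lower, with 115, 122 and 130 CPM in virgin and 95.6, 106 and 118 in primiparous libraries. The ranges overlapped slightly, although all 8 primiparous values lay below the virgin mean, and the corrected log2 fold change was −0.32 (SE 0.0436, adjusted p = 0.00012). Each of these 5 genes passed in all 16 fits that left out 1 library. With the length of the animal number as a covariate, 3 genes passed with correction, mt-Co1, Ptn and Zwint. The corrected log2 fold changes in that fit were −0.27 for mt-Co1 (adjusted p = 0.0105), 0.38 for Ptn (adjusted p = 0.0106), 0.32 for Zwint (adjusted p = 0.0484), −0.26 for Ppp2cb (adjusted p = 0.0846) and 0.32 for Dad1 (adjusted p = 0.0963, edgeR).

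**Figure D3:**
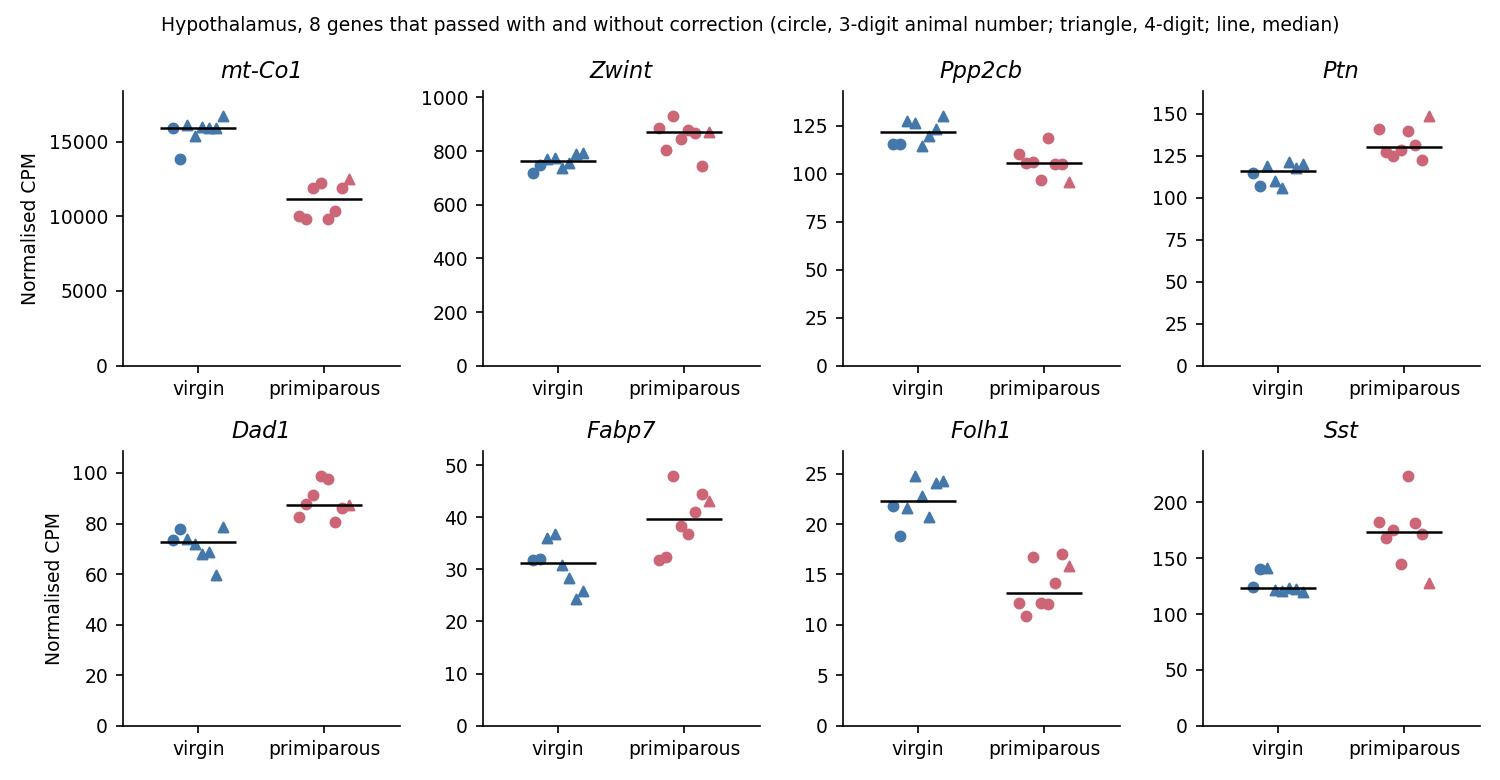
TMM-normalised CPM (y axis, from 0) of 8 genes that held, in the 8 virgin and 8 primiparous hypothalamus libraries. Each point is a library, circles mark 3-digit and triangles 4-digit animal numbers, and lines are medians; the groups do not overlap for mt-Co1, Ptn, Dad1 and Folh1.

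Among the genes that held and were higher in primiparous females, the largest corrected change belonged to Pcp2, a marker of Purkinje cells of the cerebellum, with a log2 fold change of 1.87 (adjusted p = 0.0475, edgeR). It falls outside the rule for named genes and was added after its values were seen. It was counted at fewer than 5 CPM in both groups, and traces of cerebellar tissue were not tested. The genes of at least 5 CPM with the largest corrected rises are described next. Lsm2, part of the ring that binds the U6 splicing RNA, had 4.94, 5.93 and 6.76 CPM in virgin and 5.16, 9.3 and 10.5 in primiparous libraries, a corrected log2 fold change of 0.67 (adjusted p = 0.00778). Anapc13, a subunit of the anaphase-promoting complex, had 18.1, 20.3 and 27.8 CPM in virgin and 23.6, 29 and 41 in primiparous libraries. Both genes overlapped between the groups, Anapc13 only through virgin library 409. H2afz, which encodes the histone variant H2A.Z, had 41, 45.9 and 60.4 CPM against 51.5, 67.5 and 87.8, with a corrected log2 fold change of 0.51 (adjusted p = 0.006). Fabp7, the brain fatty acid binding protein of astrocytes and radial glia, had 24.3, 31.3 and 36.8 CPM in virgin and 31.7, 39.6 and 48 in primiparous libraries. Its ranges overlapped before correction and no longer did after it, and the corrected log2 fold change was 0.52 (adjusted p = 0.00165). Serpinh1, the collagen chaperone HSP47, ranged from 13.4 to 20.8 CPM in virgin (median 17.2) and from 20.4 to 36.4 in primiparous libraries (median 25.6), with a corrected log2 fold change of 0.47 (adjusted p = 0.0136). The remaining genes of this group, Snhg8, Tceal3, Atp5l, Gpr50, Rps12, Rbm15 and Dlx6, had corrected log2 fold changes from 0.61 down to 0.45. Rps12, Rbm15 and Dlx6 lost their call in 6, 7 and 13 of the 16 fits that left out 1 library.

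Genes that held and were lower in primiparous females were described by the same rule. Folh1, the glutamate carboxypeptidase that cleaves N-acetylaspartylglutamate (chromosome 7, 86718977 to 86775943), had 18.8, 22.3 and 24.8 CPM in virgin and 10.9, 13.2 and 17.1 in primiparous libraries, with no overlap, although the corrected values overlapped slightly. Its log2 fold change was −0.68 (SE 0.0985, adjusted p = 0.000465) without and −0.44 (SE 0.0874, adjusted p = 0.00575) with correction. Zxdb, a zinc finger factor on the X chromosome, had the largest corrected fall of the genes named by the rule, with 15.1, 25.8 and 27.1 CPM in virgin and 11.6, 15.9 and 20.6 in primiparous libraries and a corrected log2 fold change of −0.60 (adjusted p = 0.00545). The groups overlapped through virgin library 409, the lowest of its group. Serpina3n, a protease inhibitor made by reactive astrocytes, had 61.3, 69.5 and 85.9 CPM against 45.6, 52.2 and 75.9, a corrected log2 fold change of −0.43 (adjusted p = 0.0103). Ywhah, a 14-3-3 protein, had a corrected log2 fold change of −0.41 (adjusted p = 0.0207). Shh, the Sonic hedgehog ligand, ranged from 11.3 to 16 CPM in virgin (median 14.3) and from 7.35 to 16 in primiparous libraries (median 10.8). Its corrected log2 fold change of −0.41 (adjusted p = 0.0461) lost the call in 11 of the 16 fits that left out 1 library. Fmn1, Cpm, Zfp91 and Ube2g1 lost theirs in 2, 7, 12 and 7 of these fits, and Lonrf3 and mt-Nd3 in 0.

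Peptides, receptors and transcription factors that define the region were counted beside all genes, 22.6% of which passed without and 2.83% with correction. Of 27 measured peptide genes, 3 were higher and 3 lower without correction, and 1 was higher with it, beside the 1.69% of all genes. That gene was Sst, the precursor of somatostatin, an inhibitor of growth hormone release (chromosome 16, 23889573 to 23890958). It had 119, 123 and 141 CPM in virgin and 128, 173 and 224 in primiparous libraries, so that the lowest primiparous value fell within the virgin range while all 8 lay above the virgin mean. Its log2 fold change was 0.44 (adjusted p = 0.0014) without and 0.26 (SE 0.0498, adjusted p = 0.00448) with correction. Vgf, the most abundant gene of the list, did not pass, with a corrected log2 fold change of −0.08 (adjusted p = 0.379). Of 34 hormone and peptide receptors, 2 were higher with correction and 1 held, Gpr50, an orphan relative of the melatonin receptors found in tanycytes. It had 11.7, 14.1 and 21.3 CPM in virgin and 17.6, 20.9 and 25.4 in primiparous libraries, overlapping ranges with a corrected log2 fold change of 0.52 (adjusted p = 0.00712). Of 22 transcription factors of the hypothalamus, 0 passed with correction, and their median corrected log2 fold change was 0.06, against 0.01 over all genes.

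Markers of neurons and of transmitter identity included a few genes that held. Slc17a6, the vesicular glutamate transporter VGLUT2, had 341, 403 and 439 CPM in virgin and 279, 289 and 356 in primiparous libraries. The ranges met only at their edges, and the corrected log2 fold change was −0.20 (SE 0.0422, adjusted p = 0.00712). The thalamus expresses this gene strongly too. The summed level of the 13 thalamus and habenula markers ranged from 747 to 969 CPM in virgin (median 776) and from 640 to 734 in primiparous libraries (median 698). Slc17a6 is the most abundant gene of this sum and makes up much of it, so the lower sum is not separate from its own fall. In that list 1 of 11 measured genes passed with correction, Slc17a6 itself, while 5 had a corrected log2 fold change above zero and the median was −0.03. The part of dissection in the difference of Slc17a6 was not tested. Of 16 genes expressed throughout neurons, 1 passed with correction, Map2, a microtubule-associated protein of dendrites with 900, 1105 and 1223 CPM in virgin and 771, 888 and 1053 in primiparous libraries. These overlapping values gave a corrected log2 fold change of −0.27 (SE 0.0447, adjusted p = 0.00175). Of 14 GABA-A receptor subunits, the channels of fast inhibition, 8 were lower without correction, beside 11.8% of all genes, and 0 passed with it, beside 2.83%. Their median log2 fold change went from −0.31 to −0.08, and their median GC content was 42.6%. Gabrg1, for example, had 103, 146 and 166 CPM in virgin and 86.4, 104 and 128 in primiparous libraries, and its log2 fold change of −0.44 (adjusted p = 0.00181) became −0.08 (adjusted p = 0.321). Of 13 genes that the study itself names for the hypothalamus, 11 passed without correction and 0 with it. Beside the 2.83% of all genes, a 0 in so short a list says little. Their median log2 fold change went from −0.27 to −0.05. Some estimates stayed larger, with Npy going from 0.53 to 0.40 (adjusted p = 0.182) and Preb from 0.20 to 0.14 (adjusted p = 0.127, edgeR). The study picked that list on the same samples, so its first count is not independent of them.

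Many transcripts encoded in mitochondrial DNA were called lower in primiparous females, fewer of them with correction than without. Their share of all counted reads was 4.72% at the lowest, 5.83% at the median and 6.03% at the highest in virgin libraries and 3.74%, 4.23% and 4.84% in primiparous libraries (exact permutation test, p = 0.000311, and 0.00117 after adjustment over 5 library measures). Other measures moved with state too. The share of the 10 most abundant genes had medians of 6.34% in virgin and 5.24% in primiparous libraries (adjusted exact p = 0.00117). Mitochondrially encoded genes such as mt-Co1 count in both shares, so this measure is not independent of the mitochondrial one. The genes with a read (medians 18546 and 17528, adjusted exact p = 0.0107) and the TMM factor (medians 0.991 and 1.01, adjusted exact p = 0.00881) also moved. The counted reads did not (adjusted exact p = 0.815). The mitochondrial shares of the groups overlapped through virgin library 409 and primiparous library 4493. Of 15 measured genes, 13 were lower without correction, beside 11.8% of all genes, with a median log2 fold change of −0.47. Of the 13 with a length and GC value, 7 were lower and 0 higher with correction, beside 1.14% and 1.69% of all genes, 0 had a corrected log2 fold change above zero, and their median was −0.22. Beside mt-Co1, mt-Nd1 had 5133, 5958 and 6444 CPM in virgin and 3688, 4231 and 5134 in primiparous libraries and a corrected log2 fold change of −0.19 (adjusted p = 0.00712). Their transcripts are GC-poor, with a median of 37.1%, near the end of the range over which the trend was fitted. Among virgin libraries the share was 4.72% and 5.74% in the 3-digit animals and 5.67% to 6.03% in the 4-digit animals. In primiparous libraries it was 3.74% to 4.71% in the 3-digit animals and 4.84% in the 4-digit animal, and the part of this split in the share was not tested. With the length of the number as a covariate, the corrected log2 fold change was −0.27 for mt-Co1 (adjusted p = 0.0105) and −0.16 for mt-Nd1 (adjusted p = 0.231, edgeR).

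Most nuclear genes of the respiratory chain and of the ribosome did not pass, and those that did were mainly higher. Of 73 nuclear subunits of the respiratory chain, 11 were higher and 2 lower with correction, beside 1.69% and 1.14% of all genes. Ndufb11, a subunit of complex I, had 77, 81.3 and 92.3 CPM in virgin and 90.1, 99.1 and 107 in primiparous libraries, with a slight overlap and a corrected log2 fold change of 0.17 (adjusted p = 0.0189). Atp5c1, the gamma subunit of ATP synthase, fell from 188, 210 and 215 CPM to 165, 178 and 185 without overlap, though corrected values overlapped, a corrected log2 fold change of −0.22 (adjusted p = 0.00188). Of 82 cytosolic ribosomal proteins, 18 were higher and 0 lower with correction, 72 had a corrected log2 fold change above zero, and the median was 0.12, against 6638 of 12648 genes above zero and a median of 0.01 over all genes. Rpl10a had 78.3, 82.8 and 102 CPM in virgin and 84, 111 and 133 in primiparous libraries, a corrected log2 fold change of 0.38 (adjusted p = 0.00157). Rplp1, an acidic protein of the ribosomal stalk, had 298, 322 and 430 CPM against 336, 434 and 595 and a corrected log2 fold change of 0.19 (adjusted p = 0.0051). Both ranges overlapped. Many ribosomal protein genes have near-identical pseudogenes, and since only reads mapping once were counted, their levels are uncertain. The correction used the GC content of the longest transcript and the length of all exons of a gene. Whether these match the expressed form was not tested, so corrected values of single genes can be off. Gapdh, which has such copies too, was counted at a median of only 74.1 CPM in virgin and 61.3 in primiparous libraries, so its corrected log2 fold change of −0.27 (adjusted p = 0.0067) is uncertain as well. Of 77 mitochondrial ribosomal proteins, 3 were higher and 0 lower with correction.

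Lists of protein folding and RNA processing genes were counted beside the 1.69% of all genes called higher and the 1.14% called lower with correction. Of 20 chaperones and stress genes of the endoplasmic reticulum, 4 were higher and 0 lower with correction, and 2 held. Ddit3, the stress-induced transcription factor CHOP, had 15, 17.3 and 18.5 CPM in virgin and 18.1, 21.1 and 27.5 in primiparous libraries, with a corrected log2 fold change of 0.44 (adjusted p = 0.00628). Pdia6, a disulfide isomerase, had 155, 173 and 188 CPM against 177, 190 and 199, and its corrected log2 fold change of 0.16 (adjusted p = 0.0216) lost the call in 3 of the 16 fits that left out 1 library. The CPM ranges of both genes overlapped. Among 16 heat shock genes, 2 were higher with correction, Hsp90ab1, a cytosolic chaperone, and Hsf1, the factor that switches such genes on, the latter with 37.7, 39.7 and 46.3 CPM in virgin and 44.3, 50.8 and 62.6 in primiparous libraries. Hsf1 had a corrected log2 fold change of 0.27 (adjusted p = 0.0159), while Hsp90ab1, at 0.12 (adjusted p = 0.0294), lost its call in 8 of the 16 fits. Of 52 splicing factors, 8 were higher and 10 lower without correction, against 10 higher and 1 lower with it, so the balance rests on the correction. Srsf4 had 61.9, 68.1 and 75.3 CPM in virgin and 72.6, 82.9 and 94.2 in primiparous libraries and a corrected log2 fold change of 0.21 (adjusted p = 0.015), while Hnrnpdl fell by 0.19 on the corrected log2 scale (adjusted p = 0.0335), a call lost in 10 of the 16 fits. Of 33 histone and DNA modifying enzymes, 1 passed with correction, the maintenance DNA methyltransferase Dnmt1. Its CPM values of 66.9, 79.2 and 88.7 in virgin and 90, 93.7 and 101 in primiparous libraries did not overlap, but the corrected CPM values did, and the corrected log2 fold change of 0.17 (adjusted p = 0.049) lost the call in 14 of the 16 fits.

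**Figure D4:**
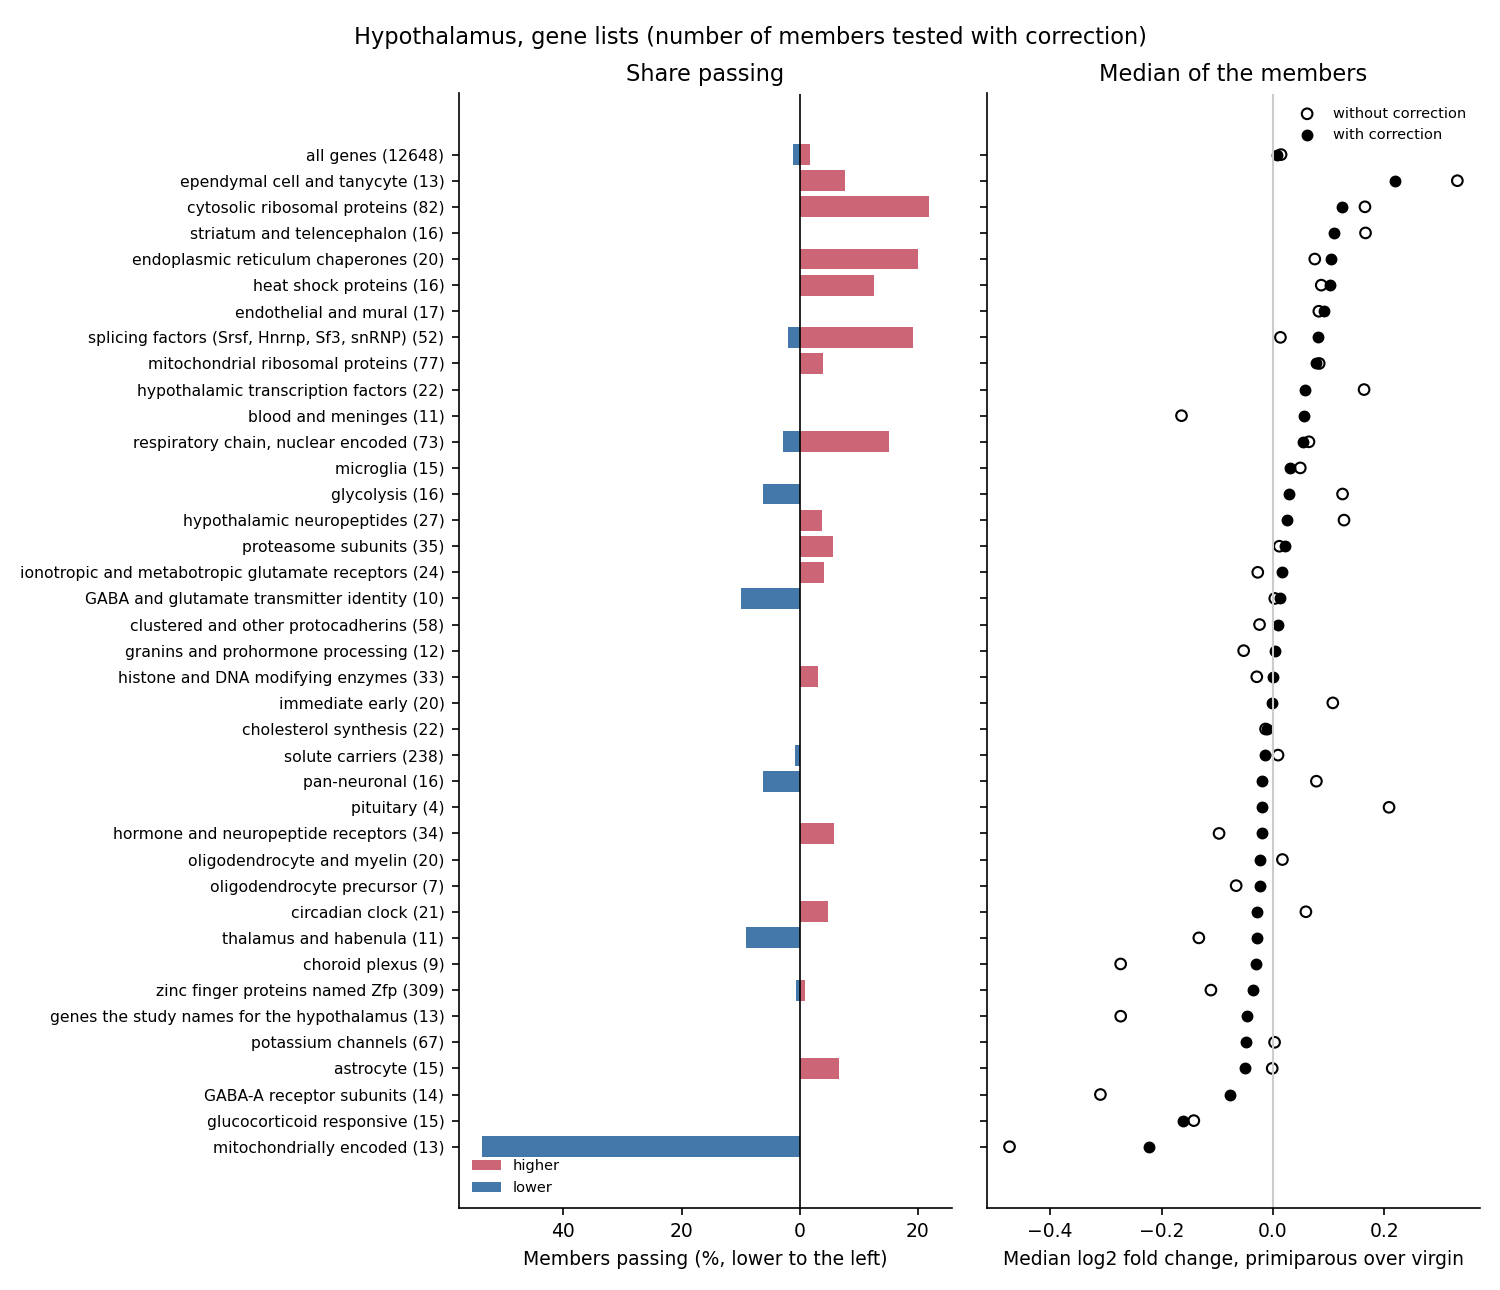
Gene lists in the hypothalamus, with the number of members tested with correction in parentheses. Left, percent of members passing with correction, higher to the right and lower to the left; right, median log2 fold change of the members without (open) and with (filled) correction, where mitochondrially encoded genes have the lowest corrected median, −0.22.

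At the 2.83% of all genes called with correction, less than 1 call would fall in each of the short lists of cell type markers, so a 0 among them says little. With correction, 0 of 20 oligodendrocyte, 0 of 7 oligodendrocyte precursor, 0 of 15 microglia and 0 of 17 endothelial and mural markers passed in edgeR's test, and 1 of 15 astrocyte markers was higher. Mbp, a myelin protein, had a median of 2899 CPM in virgin and 3099 in primiparous libraries (corrected log2 fold change −0.00, adjusted p = 0.99). Of 13 measured markers of ependymal cells and tanycytes, which line the third ventricle, 1 passed, Gpr50, while 11 had a corrected log2 fold change above zero and the median was 0.22. The summed level of all 15 markers on this list, including those below the filter, was 207, 239 and 286 CPM in virgin libraries. In primiparous libraries it was 238, 291 and 335 CPM. These ranges overlapped, and the most abundant gene was Col23a1. In whole-tissue RNA, fewer cells of a type and less RNA per cell cannot be told apart.

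Some genes changed sides of the threshold with the correction. Igf1, the insulin-like growth factor, had the largest uncorrected fall among genes of at least 5 CPM that passed only without it, with 4.13, 7.47 and 9.71 CPM in virgin and 2.01, 4.33 and 5.87 in primiparous libraries. Its log2 fold change was −0.84 (adjusted p = 0.00522) without and −0.56 (adjusted p = 0.0797) with correction. The largest uncorrected rises among such genes included those of red blood cells, Alas2 and Hba-a2, whose corrected log2 fold changes were 0.65 (adjusted p = 0.1) and 0.51 (adjusted p = 0.279). In the other direction, Mrps9, a mitochondrial ribosomal protein, had 20.6, 23.5 and 28.4 CPM in virgin and 23.4, 26 and 29.3 in primiparous libraries. Its log2 fold change of 0.14 (adjusted p = 0.17) became 0.41 (adjusted p = 0.00328) with correction. Nr2f1, a nuclear receptor with a GC-rich transcript (60.2%), had a log2 fold change of −0.16 (adjusted p = 0.209) that became −0.35 (adjusted p = 0.0128). For both genes the CPM values of the groups overlapped widely, so that these calls rest on the correction.

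The hypothalamus was then set against the other regions of the same mice. Its GC slope difference departed from that in the amygdala by 0.26 (exact permutation test of the within-animal difference, adjusted p = 0.00808 over 4 regions), from that in the hippocampus by 0.22 (adjusted p = 0.00901) and from that in the cerebellum by 0.18 (adjusted p = 0.0247). It did not depart detectably from that in the cortex, at 0.05 (exact permutation test, adjusted p = 0.559). The cortex had a slope difference of 0.14 (exact permutation test, adjusted p = 0.0624 over 5 regions), beside 0.18 in the hypothalamus. Its uncorrected log2 fold change and GC content had a correlation of 0.621 across genes, beside 0.635. The slope difference was −0.002 in the cerebellum, −0.04 in the hippocampus and −0.08 in the amygdala. The last 2 departures thus lay partly in those regions. For corrected expression, edgeR's interaction test called 672 of 12648 genes (5.31%) against the cerebellum, 137 (1.08%) against the hippocampus and 185 (1.46%) against the amygdala. With the animal as a replicate block these counts were 496, 43 and 83. Against the cortex, 0 genes (0.0%) departed by edgeR's test, with 480 at an unadjusted p under 0.05.

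Zwint departed from all 3 of these regions, by 0.35 in the cerebellum (adjusted p = 0.0142), 0.36 in the hippocampus (adjusted p = 0.0165) and 0.57 in the amygdala (adjusted p = 0.00025, edgeR), and mt-Co1 did so by −0.56 (adjusted p = 0.000227), −0.33 (adjusted p = 0.0118) and −0.54 (adjusted p = 0.0105). Both genes also passed against each of the 3 with the animal as a replicate block. Part of these departures lay in the other regions. The corrected log2 fold change of mt-Co1 was 0.29 in the cerebellum (adjusted p = 0.0345), 0.05 in the hippocampus and 0.28 in the amygdala (adjusted p = 0.547, edgeR). For Zwint these values were 0.00, −0.02 and −0.21, the last with an adjusted p of 0.453 (edgeR). Fabp7 was not called against any region, with corrected log2 fold changes of 0.52 in the hypothalamus, 0.60 in the cortex, 0.69 in the cerebellum, 0.40 in the hippocampus and 0.53 in the amygdala. Within single regions it passed only in the hypothalamus and the cerebellum (adjusted p = 0.00343), not in the cortex (adjusted p = 0.998), hippocampus (adjusted p = 0.668) or amygdala (adjusted p = 0.32, edgeR).

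**Figure D5:**
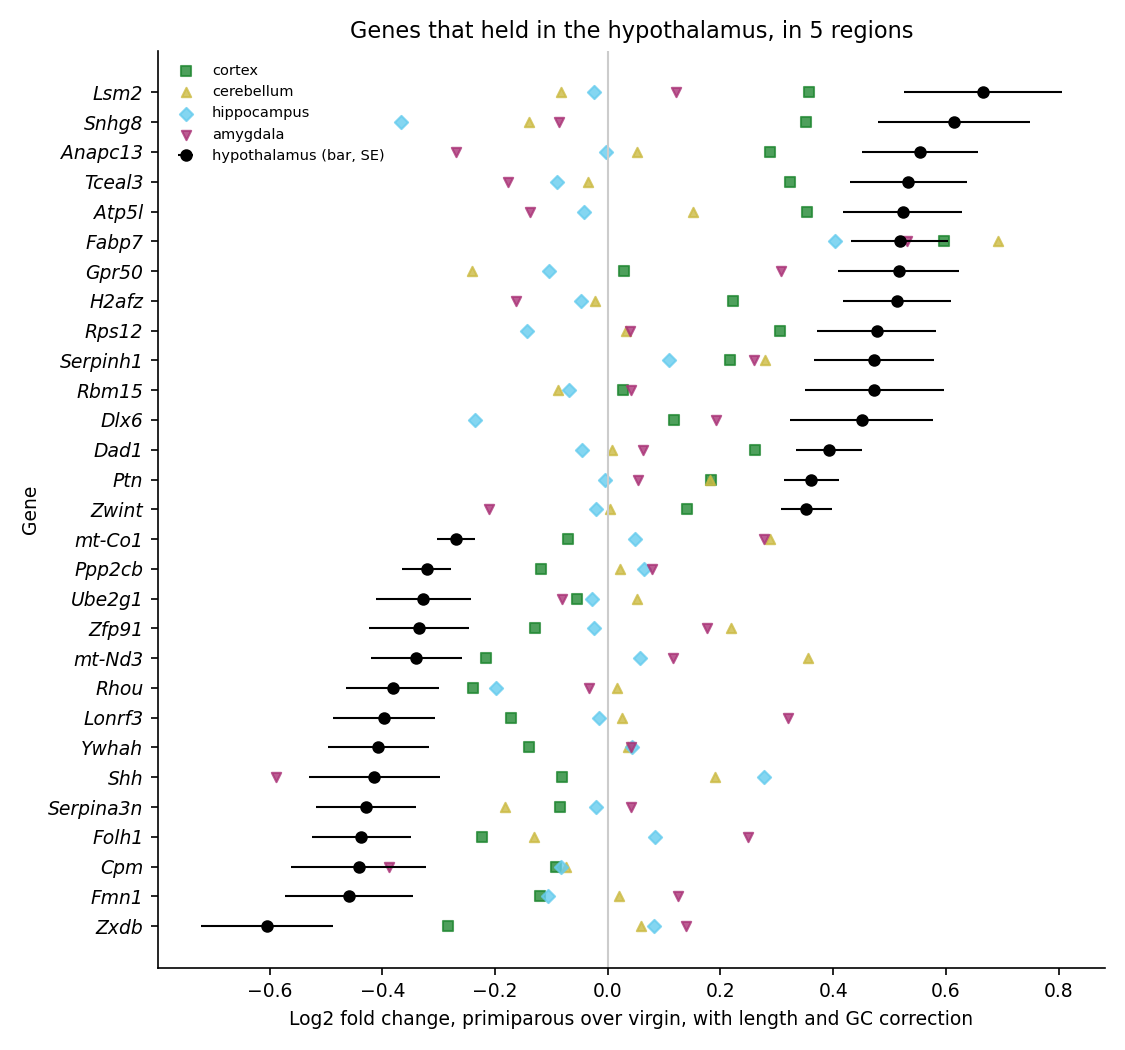
Corrected log2 fold change (x axis) of the genes that held with the largest or most certain differences in the hypothalamus (black, bars give the SE) and of the same genes in the other regions (coloured). The estimates of Fabp7 range from 0.40 to 0.69 and passed in the hypothalamus and cerebellum; the value of Dlx6 in the cerebellum, where it is barely expressed, lies outside the axis at −2.63.

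A limit is the series of animal numbers. With its length as a covariate, 3 genes passed without and 3 with correction, at 1907 and 1302 unadjusted calls. Of the 239 genes that held, which were chosen by the same state difference in the same libraries, all kept their sign in that corrected fit and 216 had an unadjusted p under 0.05, so the fit neither excludes nor shows a part of the number series for most of them. A smooth trend also removes any true difference that follows GC content, so the genes lost with it are not thereby shown to be artefacts. Library preparation, dissection and state cannot be told apart from counts alone, and time of harvest, protein and cell numbers were not tested.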

How the data were processed

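Poly(A) RNA of 5 brain regions was sequenced as single-end reads of 100 bases. The authors aligned reads to mm10 with HISAT2 and deposited whole-number counts per gene from featureCounts, without normalization, for 27179 genes and 77 libraries, with 0 unmatched columns. The strand setting is not given in the sources used here, so overlapping genes on opposite strands cannot be told apart. A log2 table deposited by the authors was used for gene symbols only. Its header names log2(CPM + 4), but its values lie 3.94 away from that at the median and within 0.0159 of log2(count / size factor + 4).

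A gene was kept if 8 or more of the 77 libraries had 5 CPM or more of it, which left 13016. The hypothalamus was fitted with edgeR 4.0.16 in R 4.3.3 (TMM, robust quasi-likelihood F-test, Benjamini-Hochberg adjustment over all genes tested), with limma 3.58.1 and DESeq2 1.42.0 as alternatives. The correction fitted the log2 CPM of each library, relative to the mean of the 16, with natural splines (4 degrees of freedom each) of exon length and GC content from GENCODE M21, available for 97.2% of genes, and entered the trend as an offset. GC slopes were tested by exact two-sided permutation over libraries in Python 3.11.15. The fits were tested on simulated data.

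The same animals gave all regions, by their numbers in the labels. Hypothalamus libraries correlated with libraries of the same animal, as deviations from group means, by a median of 0.0518 in the cortex, 0.0304 in the cerebellum, −0.0126 in the hippocampus and 0.0439 in the amygdala. With libraries of different animals the medians were 0.0028, −0.018, 0.011 and −0.0023 in the same order. All these values were small, and in the hippocampus the same-animal value was the lower, so the pairing rests on the labels. Between replicates, counts differed by more than sampling noise in every pair (lowest chi-square per degree of freedom 3.02). The lengths of animal numbers were used as a covariate, and each library was left out in turn.

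Named genes with at least 5 CPM in a group were the 12 largest and 12 smallest corrected fold changes and the 5 smallest p-values among genes that held, the 3 largest and 3 smallest fold changes among genes passing in a single fit, members of gene lists that held (up to 4 a list) or were most abundant, genes the study names, and 4 genes for sequences. A result that touched a withheld item is not reported here. Members and lists were chosen with earlier results of these data known.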

Additional observations from a re-analysis of the deposited data

Results flagged for a closer look

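Virgin library 409 stood apart from the other virgin hypothalamus libraries in several measures. Its GC slope, 0.0869, was the highest of the group by a wide gap, its mitochondrial share of 4.72% was the lowest, and so was its summed level of mitochondrially encoded genes (47190 CPM). It had the highest virgin CPM of Anapc13 (27.8), Tceal3 (123) and Rpl10a (102) and of the glycolysis list (9461), and the lowest of Zxdb (15.1), Zfp91 (69), mt-Nd1 (5133), mt-Nd2 (2976) and mt-Nd5 (4845). Without this library, 590 genes passed with correction in place of 358.

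Single libraries lay far from the rest of their group for other genes too. Among them were primiparous 427 for Serpina3n (75.9 CPM), virgin 4486 for Shh (11.3), primiparous 425 for Hba-a2 (42.4), primiparous 418 for Mir124-2hg (1.28) and virgin 4491 for Bhlhe41 (27). Igf2 in virgin 4489 (90.6 CPM) and Dbp in primiparous 413 (51.7 CPM) lay apart as well. The summed thalamus and habenula markers reached 969 CPM in 1 virgin library and the summed transcription factors of the hypothalamus 534 CPM in 1 primiparous library. In the cerebellum, virgin 4488 had the lowest GC slope, −0.176. For named genes 162 groups were tested, and chance alone marks about 1 in 20 groups in this way.

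Several differences between the states departed from those in another region when the difference itself was tested. The GC slope did so by 0.181 against the cerebellum, 0.221 against the hippocampus and 0.261 against the amygdala, and 672, 137 and 185 genes did so after correction. Among the genes with the smallest p-values, mt-Co1 departed by −0.56, −0.33 and −0.54 against the cerebellum, hippocampus and amygdala, Zwint by 0.35, 0.36 and 0.57 and Ppp2cb by −0.34, −0.40 and −0.40. Ptn departed by 0.36 against the hippocampus and 0.31 against the amygdala, the latter no longer called with the animal as a replicate block (adjusted p = 0.122, edgeR), and Dad1 by 0.39 against the cerebellum and 0.43 against the hippocampus. The reasons were not tested.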

How the results depend on the processing

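The uncorrected count of 2939 genes ranged from 2189 to 3375 over other tests, normalizations and filters, and from 2014 to 4119 when 1 library was left out. It fell to 3 with the animal number length as a covariate and to 1 within the 3-digit animals alone, a subset chosen after seeing the data that holds 2 virgin animals. The corrected count of 358 was 220 with limma-voom, 638 with DESeq2, 2821 with gene length alone, 3 with the covariate and 2 within the 3-digit animals, and between 308 and 399 under the other settings. Leaving out 1 library gave 172 to 661 genes, 661 without primiparous 418, 590 without virgin 409, and 204, 199, 220, 230, 172 and 199 without virgin 405, 4487, 4488, 4489, 4490 and 4491. The 239 genes that held, recounted under settings chosen after seeing the data, became 152, 410, 2422, 1 and 1 under the same 5 alternatives, and 119 to 448 with 1 library left out (448 without primiparous 418, 381 without virgin 409, and 146, 135, 149, 158, 119 and 136 without virgin 405, 4487, 4488, 4489, 4490 and 4491). Of the 239, 145 were called by corrected limma-voom, 235 by DESeq2 and 112 in all 16 fits that left out 1 library. With GC content taken over all exons in place of the longest transcript, 193 of them were still called. The GC slope difference kept its sign and its exact p under the threshold in every planned setting, from 0.161 to 0.21 with 1 library left out, and became 0.0947 within the 3-digit animals (exact p = 0.417). The interaction counts with the animal as a replicate block were 496 against the cerebellum, 43 against the hippocampus, 83 against the amygdala and 0 against the cortex. Without the block and without correction they were 2023, 2272, 2355 and 0. Among named genes, correction for length alone turned the direction of Snap25 (−0.16), Tef (0.10) and Hmgcs1 (−0.15), and 622 of their values under alternatives no longer passed, 45 newly passed and 5352 kept their side. The cause of these shifts was not tested, except that length alone leaves the GC trend in place and the 3-digit subset holds fewer animals. Few genes pass with state and the series of animal numbers both in the fit, single libraries move the corrected count, and genes of a few CPM are measured with less precision than the abundant ones.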

Other observations

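Genes that respond to glucocorticoids, the adrenal stress hormones, were counted as a list. Of 15 measured genes, 3 were lower without correction, beside 11.8% of all genes, and 0 passed with it, beside 2.83%, 1 had a corrected log2 fold change above zero, and the median was −0.16, against 6638 of 12648 genes above zero and a median of 0.01 over all genes. Mt1, the metallothionein that is their most abundant member, had 208, 264 and 349 CPM at the lowest, median and highest in virgin and 174, 255 and 356 in primiparous libraries, which overlapped almost fully. Of 21 circadian clock genes, 1 was higher with correction, beside 1.69% of all genes, Bhlhe41, a repressor of the clock, with a corrected log2 fold change of 0.29 (adjusted p = 0.0403, edgeR) that lost its call in 12 of the 16 fits leaving out 1 library. Of 20 immediate early genes, which respond to neuronal activity, 0 passed with correction and 10 had a corrected log2 fold change above zero.

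Large gene families were counted beside the 2.83% of all genes called with correction. Of 311 zinc finger genes named Zfp, 69 were lower and 13 higher without correction, while 2 were lower and 3 higher of 309 with it, and their median log2 fold change went from −0.11 to −0.04. Zfp821 was higher, with 25.5, 26.9 and 28.1 CPM in virgin and 25.9, 33.8 and 37 in primiparous libraries and a corrected log2 fold change of 0.43 (adjusted p = 0.00194, edgeR). Potassium channels (67 genes) and protocadherins (58 genes) had 0 calls with correction, and of 238 solute carriers 2 were lower, Slc17a6 and the zinc and iron transporter Slc39a14. Slc39a14 had 35.3, 36.9 and 38.4 CPM in virgin and 26.2, 32.8 and 35.4 in primiparous libraries, with a corrected log2 fold change of −0.26 (adjusted p = 0.0163, edgeR). Of 35 proteasome subunits 2 were higher, and of 22 genes of cholesterol synthesis 0 passed.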
